A study of Mus musculus with 10 samples.

Results

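The genes described here are 44 immediate early and stress response genes, chosen by name: AP-1, EGR, NR4A and KLF transcription factors, dual-specificity phosphatases, heat shock proteins and genes of feedback control. All 44 were found by symbol among the 55414 Ensembl identifiers of the deposited count table, and all 44 were among the 14669 genes with enough counts to be tested. No measured value of theirs set a threshold for the choice, but it was made with earlier results of these data known. Polyadenylated RNA was sequenced from mouse splenic macrophages, isolated from spleen with magnetic beads that carry an antibody to the surface protein F4/80. A first group held 5 libraries labelled WT with the genotype C57BL/6N, and the other held 5 libraries labelled Fpr2KO, from mice described as Fpr2-/-. The deleted gene codes for a receptor by which myeloid cells sense formyl peptides. The labels name no treatment for either group and give neither age nor sex. They also do not name the strain background of the Fpr2KO mice, the construction of the allele, or whether each library came from a separate animal or from pooled animals. P-values therefore measure only the spread between these libraries, which may be technical.

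Immediate early genes are transcribed within minutes of a stimulus from factors already present in the cell, without new protein synthesis. Growth factors, cytokines, microbial products and the handling of tissue all switch them on, through serum response factor and its partners, CREB and NF-kB. Their products are transcription factors, which switch on later genes, and inhibitors that end the signal: phosphatases that inactivate MAP kinases, RNA-binding proteins that destroy short-lived mRNAs, and blockers of NF-kB and STAT signalling. Heat shock genes belong to a separate response, in which heat shock factor 1 raises chaperones when unfolded proteins build up. Both responses are known to be switched on while cells are isolated from solid tissue.

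Counts in genes summed to 15865820 at the least and 19060188 at the most per library. Fpr2 itself had between 325 and 574 counts in the WT libraries and 0 in each Fpr2KO library, so the targeted gene matched the labels in all 10. All 12 markers of red pulp macrophages on a list that includes Adgre1, the gene of F4/80, were detected, with a summed level of 8710 to 11470 CPM (gene counts relative to the library size, itself scaled by the TMM method) in WT and 8856 to 11220 CPM in Fpr2KO. The share of counts from mitochondrial genes was 4.83% to 6.09% in WT and 3.22% to 6.04% in Fpr2KO. In such bulk samples, fewer cells of a type and less RNA per cell cannot be told apart.

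Most genes of the set, heat shock genes apart, had lower estimates in Fpr2KO, but no single gene of it passed the threshold. In the mean of the 39 genes other than heat shock, Fpr2KO replicates 1 and 5 lay within the WT range. Of the 44 genes, 39 had a lower estimate in Fpr2KO, where 46.7% of all genes tested did. The median log2 fold change (Fpr2KO minus WT) was -0.31 over the 44 genes and 0.01 over all genes tested. With the false discovery rate (FDR) held at 0.05 in edgeR's quasi-likelihood test, 0 of the 44 were called. Of all genes tested, 10 were called (0.0682%), 0.0614% as lower and 0.00682% as higher. At an unadjusted p under 0.05, 19 of the 44 were lower and 0 higher, beside 4.92% lower and 4.88% higher among all genes tested. In 4 genes, Klf9, Plk3, Ier3 and Fos, the highest Fpr2KO library was lower than the lowest WT library, as it was for 0.566% of all genes tested. No gene of the set showed the reverse, which 0.825% of all genes did. The 44 genes share their libraries and are known to respond together, so these counts are not 44 separate observations. The genes were also chosen with earlier results of these data known, so no test of the set was made. The median was -0.19 without WT replicate 1, and the count of lower genes at an unadjusted p under 0.05 was 12 without that library, beside 3.92% of all genes. It was 11 without Fpr2KO replicate 2, 3 or 4, beside 8.14%, 3.73% and 3.25% of all genes. DESeq2 called 5 of the 44 (Klf9, Egr1, Plk3, Ier3 and Fos), all lower, beside 0.565% of all genes in that direction.

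**Figure D1:**
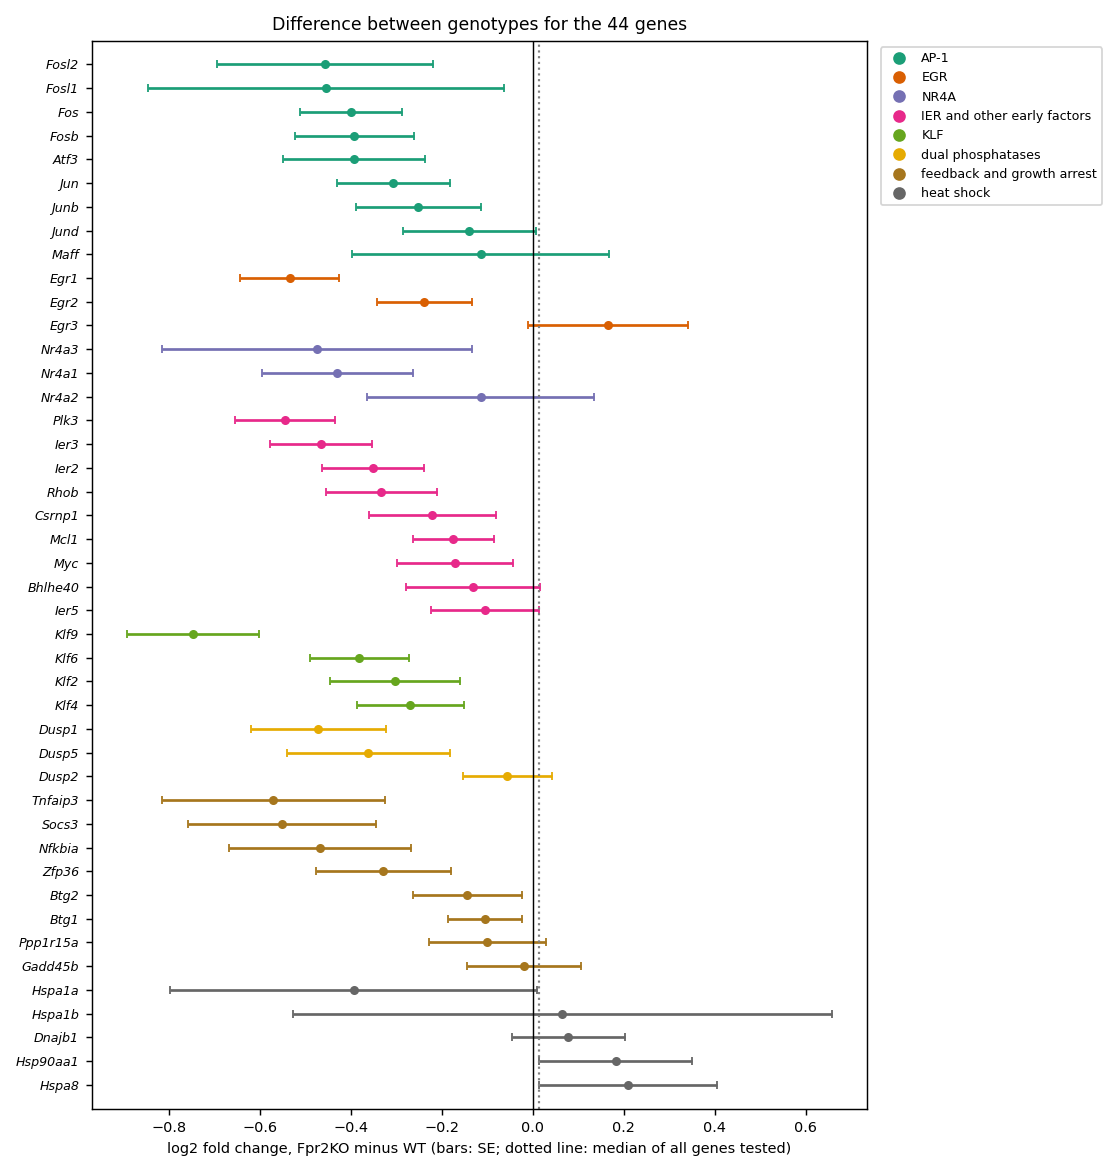
Log2 fold change of each of the 44 genes (x axis, Fpr2KO minus WT, points with SE from edgeR, 5 libraries a group), coloured by subfamily, with a dotted line at the median of all genes tested (0.01). Estimates lie left of 0 for 39 genes; the 5 to the right are Egr3 and the 4 heat shock genes Hspa1b, Dnajb1, Hsp90aa1 and Hspa8.

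On a scale that allows genes to be compared, CPM per kilobase of exon, the set spanned from Fos down to Fosl1 in WT. Fos, the founding AP-1 subunit, stood at 1536 ± 284 CPM per kb (SD, n = 5), and its SD range did not reach that of the next gene. Behind it, Jun (721 ± 148), Zfp36 (681 ± 140), Dusp1 (620 ± 146), Klf2 (529 ± 104) and Junb (494 ± 78.5 CPM per kb) followed with SD ranges that overlapped from each gene to the next, so neighbours in this order did not differ beyond their spread. The median of the 44 genes was 139 CPM per kb. At the low end were Klf9 (3.60 ± 0.643), Nr4a3 (3.03 ± 1.73) and Fosl1 (0.370 ± 0.168 CPM per kb). Together the counts of the 44 genes came to 2.96 ± 0.415% of the TMM-scaled library size of tested genes in WT and 2.43 ± 0.235% in Fpr2KO (SD, n = 5).

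**Figure D2:**
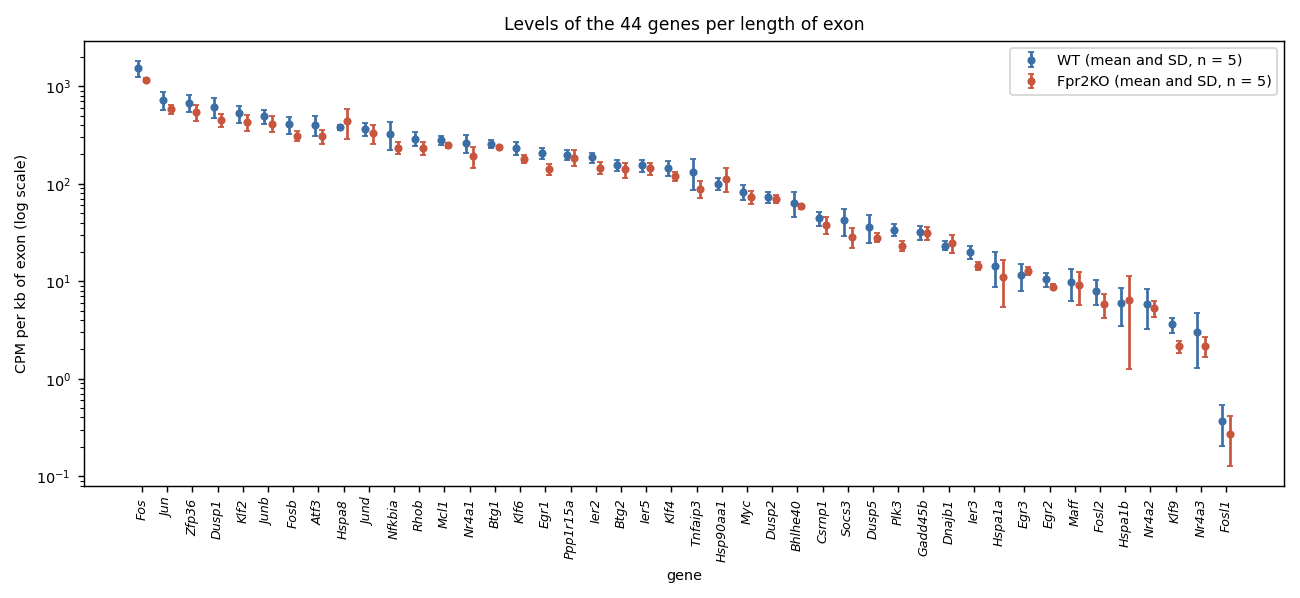
Mean level of each gene with SD (n = 5 libraries a group) on a log axis of CPM per kb of exon, ordered by the WT mean, WT in blue and Fpr2KO in red. Fos stands highest at 1536 CPM per kb in WT, and Fosl1 lowest at 0.370 CPM per kb.

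The promoters of 36 of the 44 genes could be read from RefSeq (GRCm38.p6) as windows from 250 bases before the start to 50 after it, and were searched on both strands for recognition motifs of the factors that drive these responses. The CArG box of serum response factor was found in 12.8% of the 47 windows of these genes and in 1.63% of 32851 promoter windows of all genes. Egr2 alone accounted for 4 of the 6 windows with this box, of which 3 overlap and hold the same site, and 2 of the 42 windows of the other genes held it. The cAMP response element TGACGTCA was found in 8.51% and 1.79%. The AP-1 site TGANTCA was found in 6.38% and 7.81%, the heat shock element, as TTCNNGAA or GAANNTTC, in 10.6% and 15.1%, and the EGR site GCGTGGGCG in 2.13% and 0.612%. The 47 windows are thus not independent, and a match is a description of letters, not evidence of binding. The 250 bases before the start are shown for 6 genes of different roles, each of which holds one of the motifs, given in capitals. Klf9 (chr19:23140976-23141225, plus strand), the gene with the smallest p-value of the set, holds the AP-1 site. Dusp1 (chr17:26508473-26508722, minus strand) holds the cAMP response element, and Dusp5 (chr19:53528895-53529144, plus strand) and Zfp36 (chr7:28379229-28379478, minus strand) hold CArG boxes, of which Dusp5 has 2 side by side. Hspa1a (chr17:34972157-34972406, minus strand) and Hspa1b (chr17:34959239-34959488, minus strand) are neighbouring copies of the inducible HSP70 gene, and 247 of their 250 promoter bases are identical, the heat shock element included.
Klf9: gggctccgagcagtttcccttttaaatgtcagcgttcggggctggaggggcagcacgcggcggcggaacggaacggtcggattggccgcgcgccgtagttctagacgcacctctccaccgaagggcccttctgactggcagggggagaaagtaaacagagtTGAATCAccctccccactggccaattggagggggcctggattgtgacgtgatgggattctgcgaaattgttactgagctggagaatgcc
Dusp1: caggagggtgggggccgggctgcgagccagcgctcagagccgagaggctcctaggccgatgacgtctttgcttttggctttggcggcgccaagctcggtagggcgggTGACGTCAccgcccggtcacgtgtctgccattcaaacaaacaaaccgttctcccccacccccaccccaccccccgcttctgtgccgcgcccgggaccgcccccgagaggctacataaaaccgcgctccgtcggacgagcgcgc
Dusp5: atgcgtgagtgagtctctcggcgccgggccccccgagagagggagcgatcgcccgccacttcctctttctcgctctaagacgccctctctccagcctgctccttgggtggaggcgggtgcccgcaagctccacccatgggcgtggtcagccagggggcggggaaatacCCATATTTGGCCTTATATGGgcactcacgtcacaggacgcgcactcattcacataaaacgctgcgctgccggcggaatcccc
Zfp36: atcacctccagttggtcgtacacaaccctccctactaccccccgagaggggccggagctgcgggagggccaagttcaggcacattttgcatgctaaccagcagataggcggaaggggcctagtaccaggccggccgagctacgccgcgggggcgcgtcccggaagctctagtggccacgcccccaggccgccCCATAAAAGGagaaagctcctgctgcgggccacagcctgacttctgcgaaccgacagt
Hspa1a: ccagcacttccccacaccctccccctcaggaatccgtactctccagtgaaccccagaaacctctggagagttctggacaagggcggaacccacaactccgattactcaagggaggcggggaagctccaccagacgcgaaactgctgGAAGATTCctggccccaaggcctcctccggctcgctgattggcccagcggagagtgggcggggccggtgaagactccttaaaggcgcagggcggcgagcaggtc
Hspa1b: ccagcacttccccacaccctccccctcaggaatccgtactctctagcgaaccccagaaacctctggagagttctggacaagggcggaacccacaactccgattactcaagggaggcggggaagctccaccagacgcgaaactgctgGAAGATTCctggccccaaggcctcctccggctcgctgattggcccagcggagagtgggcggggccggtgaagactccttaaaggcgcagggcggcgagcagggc

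AP-1 is a dimer formed among proteins of the Jun, Fos, ATF and Maf families. All 9 AP-1 genes (the small Maf gene Maff included) had lower estimates in Fpr2KO, beside 46.7% of all genes tested, with a median log2 fold change of -0.39. Fos (chr12:85473890-85477273, plus strand) was measured at 3480, 3708, 4708, 3032 and 3136 CPM in WT replicates 1 to 5. In Fpr2KO replicates 1 to 5 it was measured at 2880, 2804, 2742, 2479 and 2781 CPM. Every Fpr2KO library thus lay under the lowest WT library, and the Fpr2KO values were close together (coefficient of variation 5.59%, against 18.5% in WT). The difference was -0.40 on the log2 scale (SE 0.11, FDR = 0.248 by edgeR), and Fos passed with DESeq2 alone (FDR = 0.0487), within a range of FDR from 0.0487 to 0.520 over 18 alternatives. Fosb, a close relative of Fos, had 3134, 2533, 2935, 2022 and 2071 CPM in WT and 2215, 1616, 1811, 1940 and 2086 CPM in Fpr2KO. Its groups overlapped, since WT replicates 4 and 5 lay among the Fpr2KO libraries (log2 fold change -0.39, SE 0.13, FDR = 0.351 by edgeR). Jun, the main partner of Fos, had 2115, 2158, 3137, 2087 and 2005 CPM in WT and 2167, 1644, 1817, 1888 and 1780 CPM in Fpr2KO. WT replicate 3 stood far above the other WT libraries for Jun, and Fpr2KO replicate 1 lay among the WT values (log2 fold change -0.31, SE 0.12, FDR = 0.447 by edgeR; -0.17 without WT replicate 3). Atf3, a repressor of the ATF family, differed by -0.39 (SE 0.16), and Junb and Jund, which oppose Jun at many targets, had -0.25 (SE 0.14) and -0.14 (SE 0.15). In each of these 3 genes, 3 Fpr2KO libraries lay below every WT library, and Jund had 1 above every WT library. Fosl2 and Fosl1, the later members of the Fos family, had -0.46 (SE 0.24) and -0.46 (SE 0.39), and Fosl1 was close to undetected in every library (0.303 to 1.34 CPM). Maff had -0.12 (SE 0.28), and its estimate turned to 0.10 without WT replicate 1. Exons of Ccdc85b cover 57.2% of those of Fosl1 on the other strand, and those of Gm11175 cover 52.6% of Jund, so counts of these 2 genes are uncertain where the strand setting is unknown.

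EGR factors are zinc finger activators induced through the ERK pathway, and their 3 genes had estimates in both directions. Egr1 was measured at 1055, 984.5, 956.2, 834 and 764.6 CPM in WT replicates 1 to 5 and at 639.7, 610.1, 541.9, 615.4 and 764.7 CPM in Fpr2KO replicates 1 to 5. Fpr2KO replicate 5 and WT replicate 5 were at almost the same level, and the other 4 Fpr2KO libraries lay below all WT libraries. The difference in Egr1 was -0.54 on the log2 scale (SE 0.11, FDR = 0.112 by edgeR). Egr1 was called without WT replicate 5 (FDR = 0.0365 by edgeR, where 0.114% of all genes were called lower), and its FDR ranged from 0.00106 to 0.331 over 18 alternatives. Egr2, which has a role in macrophage differentiation, differed by -0.24 (log2, SE 0.10, FDR = 0.480 by edgeR; -0.15 without WT replicate 1), with 3 Fpr2KO libraries below all WT libraries. Egr3 was the single transcription factor of the set with a higher estimate, 0.17 (SE 0.18, FDR = 0.778 by edgeR). That estimate was 0.33 without WT replicate 1, where Egr3 was the 1 gene of the set higher at an unadjusted p under 0.05 (3.51% of all genes were), and 0.04 without WT replicate 3. Its WT values ran from 33.1 to 73.2 CPM around all 5 Fpr2KO values of 47.8 to 61.6 CPM. Nab2, an early gene whose protein binds EGR factors and represses them, also had a higher estimate (0.26, SE 0.10, FDR = 0.423 by edgeR). Its mean CPM was 17.9 ± 1.87 for WT libraries and 21.4 ± 1.94 for Fpr2KO libraries (SD, n = 5).

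NR4A genes encode orphan nuclear receptors without a known regulating ligand, and Nr4a1 is needed for the patrolling monocytes. Nr4a1 was measured at 1222, 882, 927, 804 and 722 CPM in WT and at 743, 514, 576, 624 and 926 CPM in Fpr2KO. Fpr2KO replicate 5 reached the level of WT replicate 3, so the groups overlapped (log2 fold change -0.43, SE 0.17, FDR = 0.435 by edgeR). Nr4a2 and Nr4a3 were both highest in WT replicate 1, which stood far above the rest for Nr4a2. Nr4a2 stood at 41.9 CPM in WT replicate 1 and at 15.6 to 20.6 CPM in the other 4, beside 16.3 to 27.2 CPM in Fpr2KO (log2 fold change -0.12, SE 0.25; 0.19 without WT replicate 1). Nr4a3 stood at 35.6 CPM in that library and at 9.88 to 18.8 CPM in the other 4, with 8.53 to 16.1 CPM in Fpr2KO (log2 fold change -0.48, SE 0.34; -0.09 without WT replicate 1).

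All 9 further early genes had lower estimates, beside 46.7% of all genes tested. In 2 of the 9, every Fpr2KO library lay below every WT library, as in 0.566% of all genes tested. Plk3 (chr4:117128655-117133963, minus strand) encodes a polo-like kinase of the stress and DNA damage response. It was measured at 96.7, 78.3, 101.5, 78.0 and 74.6 CPM in WT and at 66.1, 52.2, 59.5, 50.4 and 65.9 CPM in Fpr2KO. The highest Fpr2KO library was below the lowest WT library, and the mean was 31.5% lower (log2 fold change -0.55, SE 0.11, FDR = 0.112 by edgeR, range 0.00261 to 0.331 over 18 alternatives). Ier3 (chr17:35821684-35822923, plus strand), a short-lived regulator of apoptosis, had 26.6, 24.6, 22.9, 18.4 and 20.1 CPM in WT and 16.0, 16.2, 18.0, 14.3 and 17.1 CPM in Fpr2KO. The gap between WT replicate 4 and Fpr2KO replicate 3 was narrow (log2 fold change -0.47, SE 0.11, FDR = 0.179 by edgeR, range 0.0215 to 0.427 over 18 alternatives). Ier2, a small nuclear protein, had 301, 277, 334, 262 and 244 CPM in WT and 246, 186, 193, 224 and 261 CPM in Fpr2KO. Its groups overlapped at WT replicate 5, which lay below Fpr2KO replicates 1 and 5 (log2 fold change -0.35, SE 0.11, FDR = 0.331 by edgeR). Rhob, an early-induced small GTPase of endosomes and the highest of the 9 per kb, had 689, 627, 879, 612 and 615 CPM in WT. In Fpr2KO, replicate 1 (684 CPM) was within the WT range and the other 4 were between 486 and 539 CPM, below it (log2 fold change -0.33, SE 0.12, FDR = 0.402 by edgeR). The other 5 genes had smaller estimates, from -0.22 for Csrnp1, a nuclear protein induced by axin, to -0.11 for Ier5, a partner of heat shock factor 1. Ier5 ran from 452 to 614 CPM in WT and 355 to 537 CPM in Fpr2KO. Mcl1, the short-lived anti-apoptotic BCL2 relative, had -0.18 (SE 0.09), and Myc, the growth-promoting transcription factor, had -0.17 (SE 0.13). Bhlhe40, a repressor with a circadian role, had -0.13 (SE 0.15) and 0.03 without WT replicate 1.

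Krüppel-like factors showed the lowest estimate of the set. Klf9 (chr19:23141226-23168134, plus strand), a repressor induced by glucocorticoids and thyroid hormone, was measured at 18.45, 16.96, 17.98, 12.45 and 20.89 CPM in WT. In Fpr2KO it was measured at 12.03, 10.61, 11.06, 7.93 and 10.03 CPM. The groups did not overlap, although Fpr2KO replicate 1 came close to WT replicate 4. The mean of Klf9 was 40.4% lower in Fpr2KO (log2 fold change -0.75, SE 0.14, FDR = 0.111 by edgeR). Klf9 was called without WT replicate 4 (FDR = 0.0188 by edgeR, where 0.134% of all genes were called lower), without a filter on low counts (FDR = 0.00708, together with Plk3 and Egr1, 0.126% of all genes) and with DESeq2 (FDR = 0.00106). Its FDR ranged up to 0.281 over 18 alternatives. Klf6, a factor of wound responses and macrophage inflammation, had 1220, 1088, 1113, 842 and 884 CPM in WT and 900, 786, 767, 706 and 790 CPM in Fpr2KO. Fpr2KO replicate 1 alone reached into the WT range (log2 fold change -0.38, SE 0.11, FDR = 0.255 by edgeR). Klf2, a restrainer of myeloid activation and the most abundant of the 4 per kb, had 1229, 885, 1132, 849 and 792 CPM in WT and 1027, 634, 752, 759 and 787 CPM in Fpr2KO. As with Klf6, only Fpr2KO replicate 1 overlapped the WT range, while WT replicate 5 and Fpr2KO replicate 5 were at nearly the same level (log2 fold change -0.30, SE 0.14, FDR = 0.516 by edgeR). Klf4, a monocyte differentiation factor, ran from 356 to 545 CPM in WT and 307 to 405 CPM in Fpr2KO, with 1 Fpr2KO library below the WT range (-0.27, SE 0.12, FDR = 0.482 by edgeR).

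**Figure D3:**
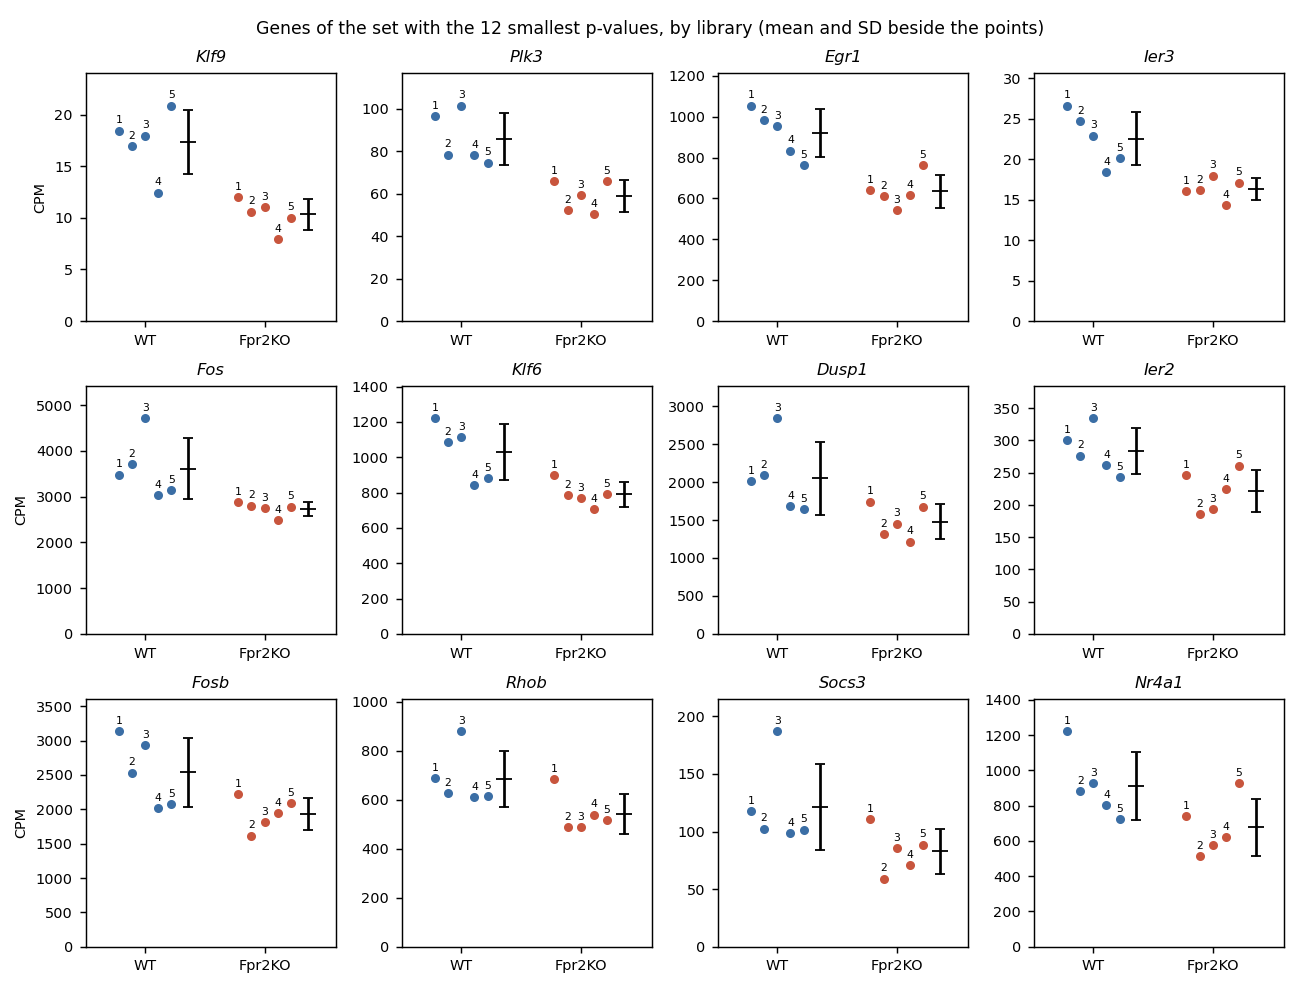
CPM (y axis, from 0) in each library for the 12 genes with the smallest p-values, WT in blue and Fpr2KO in red, numbered by replicate, with mean and SD (n = 5) beside the points. Groups do not overlap for Klf9, Plk3, Ier3 and Fos; WT replicate 3 stands high for Socs3 (187 CPM) and Rhob (879 CPM).

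Dual-specificity phosphatases remove the activating phosphates of MAP kinases, and their 3 early genes had a median log2 fold change of -0.36. Dusp1, which acts mainly on p38 and JNK and is induced by glucocorticoids, was measured at 2014, 2087, 2839, 1679 and 1644 CPM in WT. In Fpr2KO it was measured at 1742, 1310, 1453, 1216 and 1677 CPM. WT replicates 4 and 5 and Fpr2KO replicates 1 and 5 lay close to one another, so the groups overlapped (log2 fold change -0.47, SE 0.15, FDR = 0.329 by edgeR). Dusp5, specific for ERK in the nucleus, had -0.36 (SE 0.18, FDR = 0.539 by edgeR; -0.19 without WT replicate 1), with WT values that ran from 61.3 to 132 CPM around all 5 Fpr2KO values (61.6 to 79.1 CPM). Dusp2, a phosphatase of activated leukocytes, had -0.06 (SE 0.10), and 0.02 without WT replicate 3. The promoters of Dusp1 and Dusp5 shown above hold different motifs, the cAMP response element and a pair of CArG boxes.

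All 8 genes of feedback and growth arrest had lower estimates, beside 46.7% of all genes tested. In edgeR 4 of them had an unadjusted p under 0.05, beside 4.92% of all genes tested in that direction. This count depended on single libraries. For Nfkbia and Tnfaip3 the unadjusted p in edgeR was 0.0927 and 0.0985 without WT replicate 1, and 0.00801 and 0.00402 without WT replicate 4. Zfp36, the RNA-binding protein tristetraprolin that destroys cytokine mRNAs, was measured at 2279, 2272, 3145, 2314 and 1806 CPM in WT. In Fpr2KO it was measured at 1972, 1423, 1894, 1757 and 2363 CPM. WT replicate 5 lay below Fpr2KO replicates 1, 3 and 5, and the groups overlapped widely (log2 fold change -0.33, SE 0.15, FDR = 0.496 by edgeR; -0.21 without WT replicate 3). Socs3, the inhibitor of STAT3 signalling, had 118, 102, 187, 99.0 and 102 CPM in WT and 110, 59.1, 85.3, 71.1 and 88.6 CPM in Fpr2KO. WT replicate 3 was the far highest and Fpr2KO replicate 1 the one library of its group within the WT range (log2 fold change -0.55, SE 0.21, FDR = 0.430 by edgeR; -0.35 without WT replicate 3). Both inhibitors of NF-kB had a wide spread in WT. Tnfaip3, the ubiquitin-editing enzyme A20, had 1331, 1162, 1076, 549 and 656 CPM in WT and 738, 775, 661, 463 and 577 CPM in Fpr2KO (log2 fold change -0.57, SE 0.24, FDR = 0.489 by edgeR). Nfkbia, which holds NF-kB in the cytoplasm, had 669, 628, 630, 359 and 335 CPM in WT and 443, 392, 378, 298 and 384 CPM in Fpr2KO (log2 fold change -0.47, SE 0.20, FDR = 0.481 by edgeR). In both genes WT replicates 4 and 5 were among the Fpr2KO values and WT replicates 1, 2 and 3 above them all. Estimates were smaller for the antiproliferative genes Btg2 (-0.14, SE 0.12) and Btg1 (-0.11, SE 0.08), for Ppp1r15a, the GADD34 subunit that reverses eIF2 alpha phosphorylation (-0.10, SE 0.13), and for the stress sensor Gadd45b (-0.02, SE 0.13). Btg1 was even across libraries, at 1240 to 1585 CPM in WT and 1223 to 1314 CPM in Fpr2KO. Gadd45b had no stable direction, with estimates from -0.13 to 0.03 when single libraries were left out.

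Of the 5 heat shock genes, 4 had higher estimates, with a median log2 fold change of 0.08, and their Fpr2KO libraries were spread widely. Without Fpr2KO replicate 1, 2 of the 5 had higher estimates and the median was -0.04. Hspa8 (chr9:40800984-40810087, plus strand), the constitutive HSC70 chaperone, was measured at 1555, 1640, 1543, 1758 and 1659 CPM in WT. In Fpr2KO it was measured at 2621, 2254, 2113, 1224 and 1218 CPM. Fpr2KO replicates 1, 2 and 3 were above every WT library and replicates 4 and 5 below every one, so the group departed from WT in both directions (log2 fold change 0.21, SE 0.20, FDR = 0.741 by edgeR). The estimate was 0.05 without Fpr2KO replicate 1 and 0.33 without replicate 4 or 5. The coefficient of variation of Hspa8 was 5.38% in WT and 33.7% in Fpr2KO. Hsp90aa1, the inducible cytosolic HSP90, had 448, 440, 312, 385 and 377 CPM in WT and 576, 544, 460, 324 and 322 CPM in Fpr2KO. The same 3 Fpr2KO libraries exceeded all WT libraries, and the other 2 lay inside the WT range (log2 fold change 0.18, SE 0.17, FDR = 0.738 by edgeR; 0.06 without Fpr2KO replicate 1). Dnajb1, the HSP40 partner of HSP70, had 64.8 to 84.9 CPM in WT and 102.0, 76.6, 85.7, 65.5 and 63.0 CPM in Fpr2KO (log2 fold change 0.08, SE 0.12), and its estimate was -0.04 without Fpr2KO replicate 1.

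Hspa1a and Hspa1b, the stress-induced HSP70 copies whose promoters are printed above, share 70.1% and 68.1% of the 31-base sequences of their transcripts with other genes, so they are also given as a sum. The sum was 67.9, 66.0, 90.2, 45.2 and 28.6 CPM in WT and 98.5, 54.0, 50.3, 19.6 and 29.4 CPM in Fpr2KO. Both groups covered a similar, wide range, with Fpr2KO replicate 1 highest and replicate 4 lowest of the 10. Alone, Hspa1a differed by -0.39 (log2, SE 0.40; -0.71 without Fpr2KO replicate 1) and Hspa1b by 0.06 (SE 0.59). The estimate for Hspa1b was -0.23 with limma voom, -0.52 without Fpr2KO replicate 1 and -0.16 without WT replicate 5. Of the transcripts of Hspa8 and Hsp90aa1, 44.8% and 51.5% of the 31-base sequences also occur in other genes, and their counts are uncertain to that extent. The single gene that shares the largest number is the pseudogene Gm15459 for Hspa8 and the pseudogene Gm12346 for Hsp90aa1.

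A list of 20 other chaperone and heat shock genes, none of them in the set, was read beside them. Of these 15 had higher and 5 lower estimates, 0 were called and 0 had an unadjusted p under 0.05. Their summed level was 5156, 5353, 5361, 5394 and 5491 CPM in WT and 7275, 6456, 5937, 4766 and 4040 CPM in Fpr2KO. WT libraries were thus within a narrow band, with 3 Fpr2KO libraries above it and 2 below. Fpr2KO replicate 1 was the highest of its group in 17 of the 20 genes, and replicate 5 the lowest in 15. The smallest p-value was that of Fkbp4, an HSP90 co-chaperone (0.40 on the log2 scale, SE 0.21, FDR = 0.562 by edgeR), with means of 76.3 ± 17.9 CPM for WT and 100.9 ± 30.8 CPM for Fpr2KO libraries (SD, n = 5). The SD of log2 CPM was larger in Fpr2KO than in WT for 5 of the 5 heat shock genes of the set and 16 of these 20, beside 11 of the other 39 genes of the set and 55.4% of all genes tested. Erythroid markers, which erythroblasts express, were summed at 10070, 9739, 7021, 4159 and 6545 CPM in Fpr2KO replicates 1 to 5. In WT replicates 1 to 5 that sum was 3932, 4165, 1537, 6073 and 3745 CPM. Between 22708 and 22808 genes had a count in Fpr2KO replicates 4 and 5, and between 21316 and 21866 in the other 8 libraries. The part of either in the chaperone values was not tested.

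**Figure D4:**
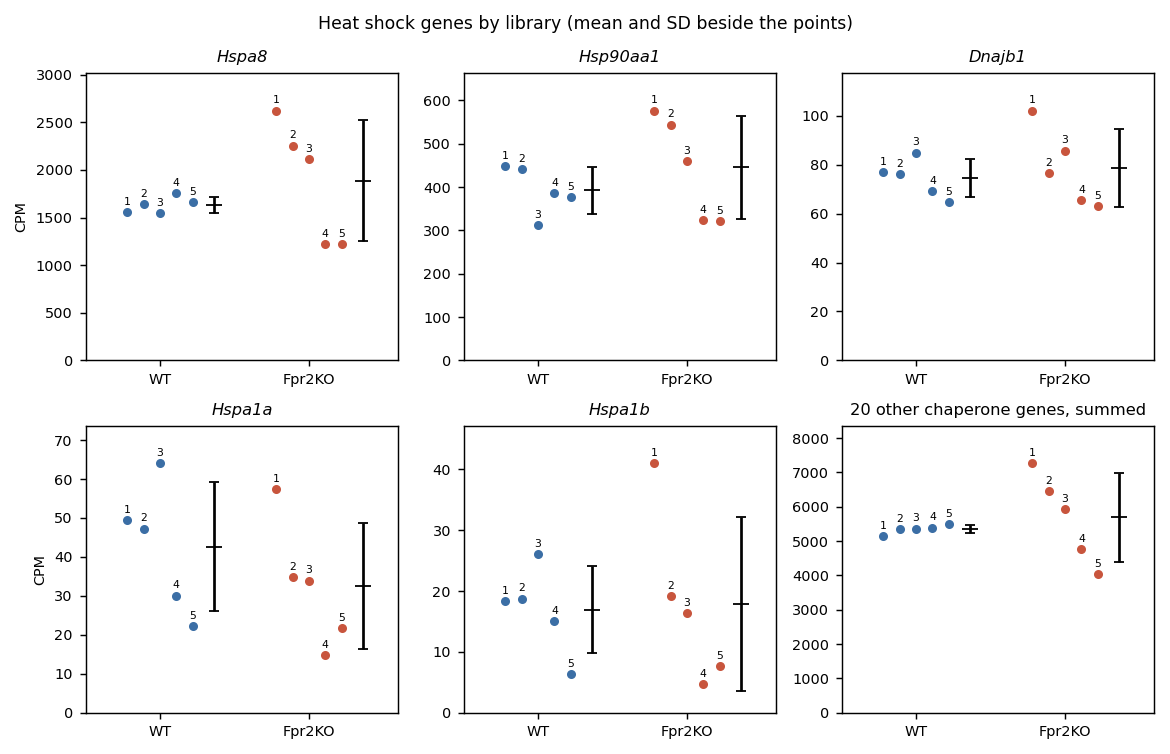
CPM (y axis, from 0) of the 5 heat shock genes of the set and the summed CPM of 20 other chaperone genes, by library, numbered by replicate, WT in blue and Fpr2KO in red, with mean and SD (n = 5) beside the points. For Hspa8 and the chaperone sum, Fpr2KO replicates 1, 2 and 3 lie above and replicates 4 and 5 below all WT libraries.

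Libraries of 1 genotype differed among themselves in these genes. The median coefficient of variation was 17.6% for the 44 genes in WT and 15.5% in Fpr2KO, beside 10.2% and 11.4% for the 9225 tested genes at 10 CPM or more in WT. WT replicate 1 was the highest of all 10 libraries in 23 of the 44 genes and the lowest in 0, and WT replicate 3 was highest in 12. WT replicate 5 was the lowest WT library in 22 genes and replicate 4 in 13. At the other end, Fpr2KO replicate 2 was the lowest of the 10 in 18 genes and Fpr2KO replicate 4 in 15. Fpr2KO replicate 1 was the highest of its group in 27 genes, among them all 5 heat shock genes. As the mean log2 CPM of the 39 genes other than heat shock, relative to the WT mean, the WT libraries were at 0.30, -0.02, 0.13, -0.20 and -0.21. On that scale the Fpr2KO libraries were at -0.06, -0.47, -0.30, -0.42 and -0.20, so Fpr2KO replicates 1 and 5 lay within the WT range and replicates 2, 3 and 4 below it.

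**Figure D5:**
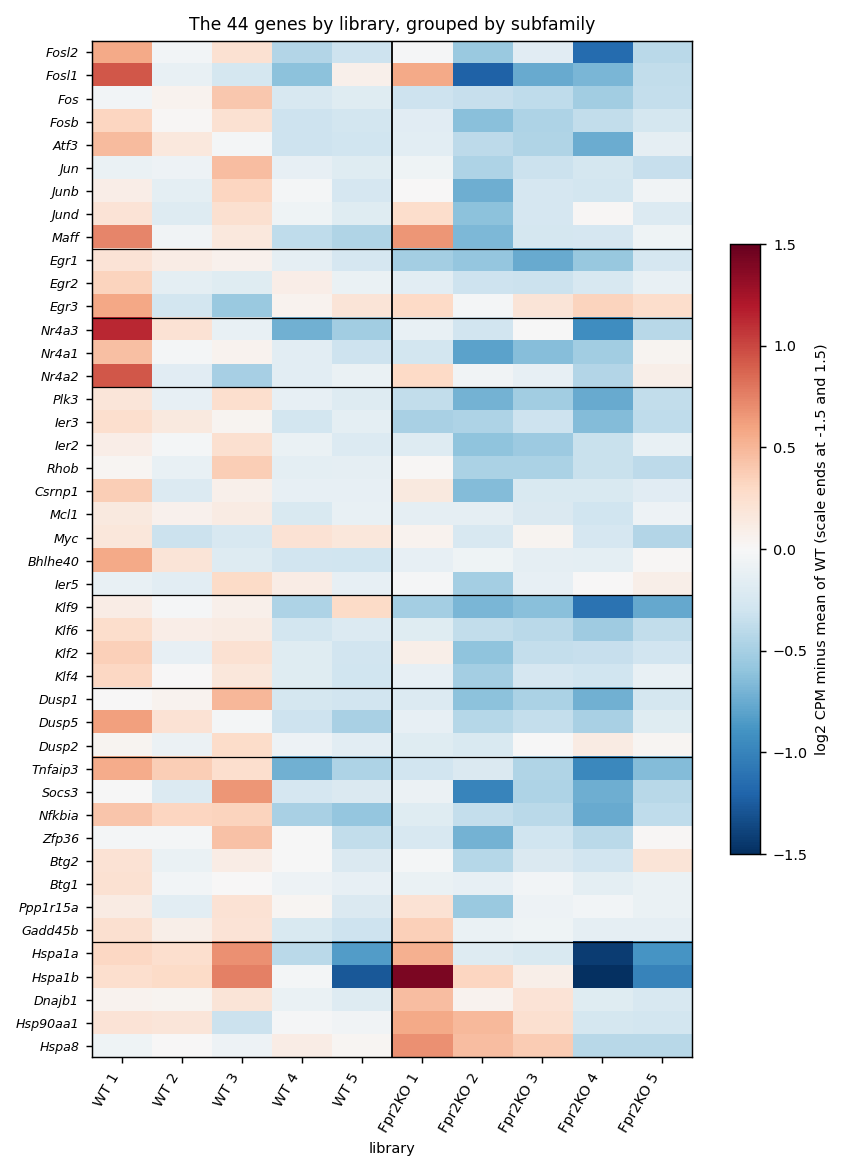
Log2 CPM of each gene (rows, grouped by subfamily) in each library (columns), relative to its WT mean, red above and blue below, with colours that end at 1.5 on either side. Most genes are red in WT replicates 1 and 3 and blue in Fpr2KO replicates 2 and 4, and the 5 heat shock rows at the bottom are red in Fpr2KO replicate 1.

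Other genes of the same pathways were read from lists that share no gene with the set. Among all genes tested, 4.92% were lower and 4.88% higher at an unadjusted p under 0.05 in edgeR. Of 30 other early response genes, 22 had lower and 8 higher estimates (median log2 fold change -0.18), 9 were lower and 1 higher at an unadjusted p under 0.05, and 0 were called. The smallest p-values were those of Trib1, a pseudokinase that directs C/EBP proteins to degradation, Sik1, a salt-inducible kinase, and Nfil3, a basic leucine zipper repressor. Trib1 averaged 159.9 ± 19.7 CPM over WT and 121.1 ± 13.5 CPM over Fpr2KO libraries (SD, n = 5). The difference was -0.40 (log2, SE 0.10, FDR = 0.188 by edgeR). For Sik1 the difference was -0.47 (SE 0.13), and for Nfil3 it was -0.51 (SE 0.15). Of 23 genes of NF-kB feedback and early cytokines, 17 had lower and 6 higher estimates (median -0.27), 7 were lower and 0 higher at an unadjusted p under 0.05, and 0 were called. Another list held 24 regulators of the response: SRF, its partners, MAP kinases, CREB and ATF factors, and Nab1, Nab2 and Ets2. Of these 24, 16 had lower and 8 higher estimates, with a median of -0.04 and 1 gene in each direction at an unadjusted p under 0.05. Those 2 were Nab2, given above, and Ets2, a target of the ERK pathway (log2 fold change -0.57, SE 0.23, FDR = 0.469 by edgeR). Of 12 genes of the integrated stress response 9 had lower estimates (median -0.16), and 2 of them, Eif2ak3 and Ppp1r15b, an unadjusted p under 0.05.

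Markers of further cells that may be present after isolation by F4/80 also differed between libraries. The counts at an unadjusted p under 0.05 stand beside 4.92% lower and 4.88% higher among all genes tested in edgeR. All 13 neutrophil markers had lower estimates (8 at an unadjusted p under 0.05, 0 called), and their summed level was 1566, 1305, 1424, 957 and 942 CPM in WT and 995, 770, 731, 536 and 884 CPM in Fpr2KO. WT replicates 1, 2 and 3 were above all other libraries in this sum and WT replicates 4 and 5 within reach of Fpr2KO. All 8 markers of classical monocytes had lower estimates (6 at an unadjusted p under 0.05, 0 called). Their sums were 995, 1033, 1140, 937.5 and 1459 CPM in WT and 687, 704, 711, 673 and 926 CPM in Fpr2KO. WT replicate 5 was thus the highest library in this sum. It was the lowest WT library in the neutrophil sum and in 22 of the 44 genes. WT libraries had the same order in the neutrophil sum as in the mean of the 39 genes other than heat shock. Fpr2KO replicates 1 and 5 were the highest of their group in both, while the order of the other Fpr2KO libraries differed. All 10 erythroid markers had higher estimates (10 at an unadjusted p under 0.05, 0 called). B cell markers were summed at 1968 to 2979 CPM in WT and 2646 to 3638 CPM in Fpr2KO, with 6 of 6 higher estimates, and T cell markers at 129 to 170 CPM and 142 to 176 CPM. All 4 platelet and megakaryocyte markers tested had lower estimates (3 at an unadjusted p under 0.05, 0 called, median -0.61), with sums of 22.3 to 42.6 CPM in WT and 17.9 to 28.2 CPM in Fpr2KO. Of 5 dendritic cell markers 4 had higher estimates (0 at an unadjusted p under 0.05, median 0.02), with sums of 192 to 273 CPM and 222 to 288 CPM. No marker on these lists was at 0 in every library. The part of these cells in the values of the early genes was not tested.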

How the data were processed

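The authors deposited raw counts, with 1 row per Ensembl gene and 1 column per library, without normalisation. The submitters' processing notes name HTSeq 0.10.0, FastQC 0.10.1 and the builds mm10 and GRCm38. The sources used here do not give the aligner, the annotation release or the strand setting, so reads of overlapping genes on opposite strands cannot be told apart. Per the labels' protocols, libraries were made from polyadenylated RNA with a NEBNext Ultra II kit. Symbols, positions and exon lengths came from GENCODE M21 (GRCm38), which matched 52133 of 55414 identifiers; the rest held 0.0564% to 0.135% of the counts of a library. Within a group, all 20 pairs of libraries differed by more than sampling noise (chi-square per degree of freedom 11.2 to 60.9).

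In R 4.3.3, edgeR 4.0.16 was run on all 10 libraries (filterByExpr, TMM, glmQLFit with robust=TRUE, glmQLFTest, two-sided, no covariate), with Benjamini-Hochberg adjustment over 14669 genes and an FDR threshold of 0.05. The SE is the log2 fold change divided by the square root of F. CPM uses TMM-scaled library sizes, and library means of log2 CPM a prior count of 2. The code was tested on simulated data. Alternatives used DESeq2 1.42.0, limma 3.58.1, other scalings and filters, and left out single libraries. Genes were given in full if among the 12 smallest p-values of the set or highest per kb in their subfamily; others were picked for display after their values were seen. The genes and lists were chosen with earlier results of these data known, so no test of a list was made. 3 symbols of the lists (Mkl1, Mkl2 and Cyr61) were read under their newer names.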

Additional observations from a re-analysis of the deposited data

Results flagged for a closer look

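Each of the 44 genes was examined in each group for a library far from the other 4, by the gap to its nearest neighbour relative to the range of the group. Of 88 groups examined 6 stood out, where chance alone flags about 1 in 20. WT replicate 3 was the far highest of its group for Jun (3137 CPM, others 2005 to 2158), Rhob (878.8 CPM, others 611.9 to 688.8) and Socs3 (187.0 CPM, others 98.96 to 117.6). WT replicate 1 was the far highest for Nr4a2 (41.87 CPM, others 15.58 to 20.55). Fpr2KO replicate 1 was the far highest of its group for Rhob (683.8 CPM, others 486.5 to 539.1) and Gadd45b (63.62 CPM, others 45.54 to 47.71). All 6 were high values, and none was a low one.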

How the results depend on the processing

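Over 18 alternatives the median log2 fold change of the 44 genes stayed below 0, from -0.39 without Fpr2KO replicate 1 to -0.19 without WT replicate 1, and between 35 and 41 genes had a lower estimate. The count of all genes past the FDR of 0.05 moved from 10 to 62 with no filter, to 185 with DESeq2, and to between 8 and 51 when single libraries were left out (51 without WT replicate 5, 26 without WT replicate 4 or Fpr2KO replicate 2). The count within the set moved from 0 to 3 with no filter and 5 with DESeq2, and ranged from 0 to 1 when single libraries were left out. With the other scalings, the strict filter, robust=FALSE and limma voom it was 0. When single libraries were left out, 11 to 23 of the set were lower at an unadjusted p under 0.05, beside 3.25% to 8.14% of all genes, and 1 was higher without WT replicate 1. Fpr2KO libraries then lay fully below WT in 5 to 10 genes of the set, beside 0.784% to 2.12% of all genes; the 10 were found without Fpr2KO replicate 1 (1.08% of all genes). The estimate moved by over 1.5 times in at least 1 of these fits for 27 of the 44 genes. Replicate numbers are shared by WT and Fpr2KO in the labels, which do not say what a number marks. Over all genes tested, deviations of same-numbered libraries from their group means had r from -0.24 to 0.29 over 5 pairs. In these, 2 of the 5 WT libraries correlated best with their own number. Within the set, the mean of the 39 genes other than heat shock was highest in replicate 1 of both groups. The heat shock mean was 0.15, 0.15, 0.25, -0.09 and -0.46 in WT replicates 1 to 5. In Fpr2KO it was 0.73, 0.22, 0.14, -0.79 and -0.56. Whether the numbers mark pairs was not tested. With the replicate number as a block, 64 of all genes and 2 of the set (Klf9 and Plk3, both lower, as were 51 of the 64) passed the FDR, and Hspa1b had a log2 fold change of -0.15. Estimates that changed sign belonged to 7 genes, none of them called: Hspa1b (-0.23 with limma voom, -0.52 to 0.31 when single libraries were left out), Gadd45b (-0.13 to 0.034), Maff (-0.37 to 0.10), Nr4a2 (-0.24 to 0.19), Bhlhe40 (-0.21 to 0.029), Dusp2 (-0.11 to 0.015) and Dnajb1 (-0.044 to 0.15). The cause was not tested. With 5 libraries a group and counts of 0.303 to 1.34 CPM, no difference was resolvable for Fosl1.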
